A study of Mus musculus with 6 samples.

Results

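The subject is 36 genes of Kupffer cells and other macrophages, among 16426 genes listed in at least 1 of 6 mouse liver libraries. They were taken from the files by matching a fixed list of gene symbols. The matching uses no measured value, but the list and its roles were drawn up with earlier results of these data known. All 36 symbols were found. They fall into 8 genes of resident Kupffer cells, 15 genes shared by macrophages in general, 6 genes of leukocyte signalling, 3 genes of infiltrating myeloid cells and 4 genes of major histocompatibility complex (MHC) class II antigen presentation. RNA of whole snap-frozen livers was sequenced from 2 groups of 3. The knockdown group received an AAV8 vector, a serotype that in mouse liver reaches mainly hepatocytes, carrying a short hairpin RNA (shRNA) against S1pr2, a receptor for sphingosine-1-phosphate. The scramble group received the same kind of vector with a scrambled hairpin. All mice were wild type on a mixed B6:sv129 background and 7 to 12 weeks old. The series text adds that they were male, that the vector went into the tail vein, and that both groups drank dexamethasone, a synthetic glucocorticoid, at about 0.84 mg/kg for 7 days. The sample labels do not name dexamethasone, and no untreated or uninjected group was analysed here. The sources used here do not give the promoter that drives the hairpin, its sequence or whether the livers were perfused.

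Kupffer cells are the macrophages fixed to the wall of the liver sinusoids, where they take up bacteria, immune complexes, modified lipoproteins and aged red cells from portal blood. Resident cells carry a set of genes (Clec4f, Cd5l, Vsig4, Timd4) that freshly arrived monocytes lack, while arriving monocytes carry the chemokine receptor genes Ccr2 and Cx3cr1. Macrophages that present antigen display peptides on MHC class II, and glucocorticoids are known to restrain much of the inflammatory program of macrophages.

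The libraries held 16558775 to 17410160 expected counts. Levels below are read counts scaled to library size with edgeR's TMM factors (CPM), and all pairs of libraries differed beyond sampling noise. The 10 hepatocyte markers, Alb and Apoa1 among them, summed to 95327 to 167913 CPM. S1pr2 itself stood at 3.04, 2.20 and 2.22 CPM in knockdown livers 1 to 3 and at 4.41, 5.23 and 6.66 CPM in scramble livers 1 to 3, with no overlap (log2 fold change -1.12, SE 0.24, edgeR adjusted p = 0.0301 by its quasi-likelihood test with Benjamini-Hochberg adjustment). Permuting the group labels of those CPM (exact, two-sided) gave p = 0.1, and 3 livers against 3 can reach no smaller value. The call was lost without knockdown liver 2 (adjusted p = 0.117) or 3 (0.101) and without scramble liver 2 (0.0785) or 3 (0.0962). The same edgeR test called 369 of 12230 genes higher in the knockdown (3.02%) and 568 lower (4.64%) at an adjusted p under 0.05. Those 937 calls became 231 without knockdown liver 2, 414 without knockdown liver 3, and 533, 456 and 400 without scramble livers 1 to 3. The lower genes were 60.6% of the calls with TMM scaling, 48.5% with upper-quartile scaling, and 30.4% and 30.6% on the deposited FPKM with pseudocounts of 0.1 and 1. FPKM moved the median log2 fold change of all genes to 0.16 with a pseudocount of 0.1, against 0.01 with TMM. The labels do not state that each liver is from a different animal; each p-value therefore covers the spread among these 6 samples and no more.

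Knockdown liver 1 and scramble liver 3 stood apart from the other livers of their group in the macrophage genes. Summed over the 36 genes, the level was 859.0, 485.6 and 499.6 CPM in knockdown livers 1 to 3 and 288.5, 335.6 and 656.7 CPM in scramble livers 1 to 3. Knockdown liver 1 was the highest knockdown liver in 30 of the 36 genes and the highest of all 6 livers in 25. Scramble liver 3 was the highest scramble liver in 30 genes, and scramble liver 1 was the lowest of all 6 livers in 26. In 23 genes both other knockdown livers were below scramble liver 3, and in 31 both were above scramble livers 1 and 2. The results that rest on these livers are given with and without them.

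**Figure D1:**
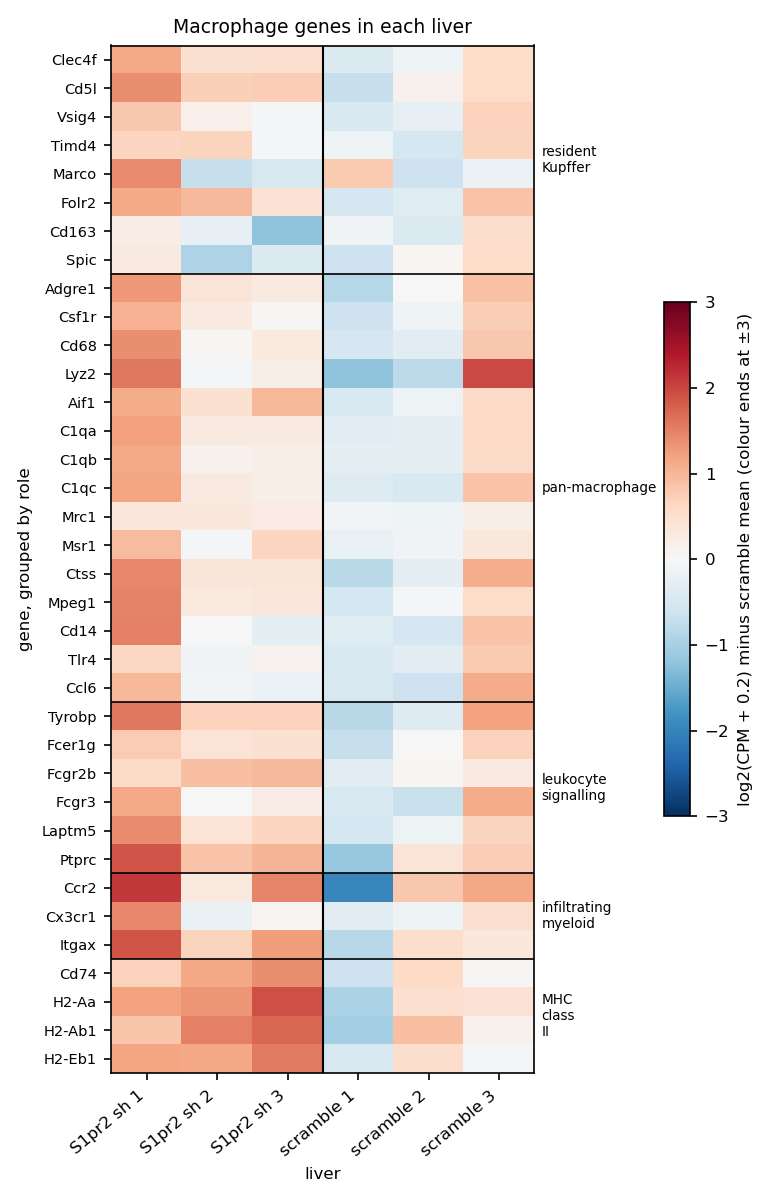
Level of each of the 36 macrophage genes (rows, grouped by role) in each of the 6 livers (columns, S1pr2 shRNA left), as log2 of CPM plus 0.2 minus the mean of the 3 scramble livers; red is higher, blue lower, and the colour ends at 3 log2 units. Knockdown liver 1 and scramble liver 3 are red in most rows, and in the MHC class II block knockdown liver 1 is red too but knockdown liver 3 is highest, in 4 of 4 genes.

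Of the 36 macrophage genes, 35 passed the count filter and Itgax did not. Fcgr2b, the inhibitory receptor for IgG, and H2-Eb1, the beta chain of the MHC class II molecule I-E, rose in the knockdown livers, and 0 fell. That is 2 of 35 tested genes called higher, beside 3.02% of all genes tested. At an unadjusted p under 0.05, 7 of the 35 were higher (Cd5l, Mrc1, Fcgr2b, Cd74, H2-Aa, H2-Ab1 and H2-Eb1) and 0 lower, beside 11.5% of all genes higher at that level. In 7 tested genes (Cd5l, Mrc1, Fcgr2b, Ptprc, Cd74, H2-Aa and H2-Eb1) every knockdown liver was above every scramble liver, a pattern that 15.1% of all genes tested had. DESeq2 called 5 of the 35 higher, adding Cd5l, Cd74 and H2-Aa, limma-voom called the same 2 as edgeR, and neither called any lower. Over all 12230 genes tested, DESeq2 called 616 higher and limma-voom 324. With the class II genes, Fcgr2b and Mrc1 set aside, edgeR called 0 of the other 29 tested macrophage genes. Of those 29, 1 had an unadjusted p under 0.05.

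The fold changes of the 35 genes lay mostly above 0. The log2 fold change, knockdown over scramble, was positive in 33 of 35 (94.3%), against 51.4% of all genes tested, and Cd163 and Spic were the other 2. The median was 0.59, with a range of -0.42 to 1.47, and the median over all genes tested was 0.01. Without knockdown liver 1 the median was 0.25, with 25 of 35 above 0, and without scramble liver 3 it was 1.07. In marker lists of other liver cells, described below, the share above 0 was 94.1% of 17 endothelial and 91.7% of 12 stellate genes. It was 50% of 8 monocyte and neutrophil, 40% of 5 red cell and 20% of 10 hepatocyte genes. A share this high was thus not particular to the macrophage genes. The macrophage genes share their livers and their cells, so these counts describe the list and are no test of it. In whole liver, a change in the number of macrophages cannot be told apart from a change in RNA per macrophage.

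**Figure D2:**
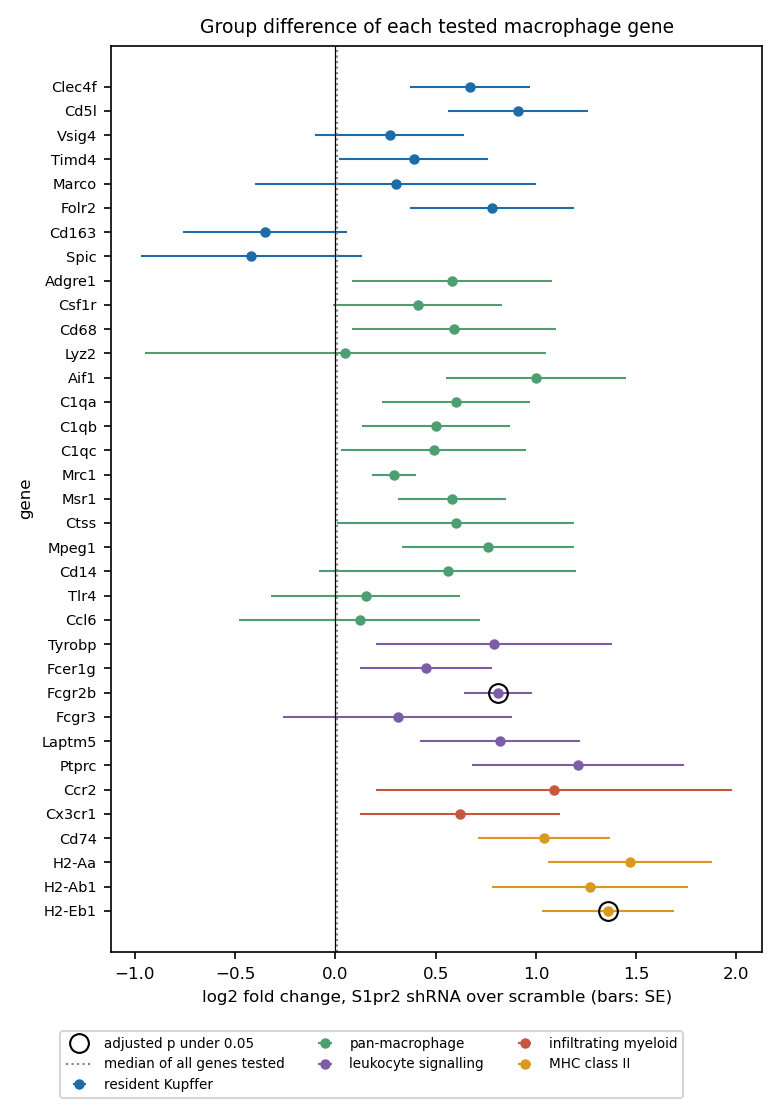
Log2 fold change, S1pr2 shRNA over scramble, of the 35 tested macrophage genes (rows, coloured by role) with bars of 1 SE from the edgeR fit of 3 against 3 livers; circles ring the genes with an adjusted p under 0.05 and the dotted line is the median of all genes tested, 0.01. Points run from -0.42 for Spic to 1.47 for H2-Aa, the ringed genes are Fcgr2b (0.81) and H2-Eb1 (1.36), and Lyz2 has the widest bar (SE 1.00).

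On the deposited FPKM, which allows for transcript length, the macrophage genes spanned a wide range. Lyz2, which encodes macrophage lysozyme, led with a mean of 51.4 FPKM over the 6 livers, followed by the complement genes C1qb (28.2), C1qc (27.2) and C1qa (26.3) and by Fcgr2b (22.7). The resident genes Cd5l, Vsig4 and Clec4f came next to each other at 14.2, 13.5 and 13 FPKM. The lowest were Ccr2 at 0.547, Tlr4 at 0.323 and Itgax at 0.115 FPKM. Some neighbours in this order kept close ratios in every liver. C1qa stood at 0.865 to 0.981 times C1qb and C1qc at 0.815 to 1.12 times C1qb; the 3 genes encode the chains of 1 protein. Others did not: the ratio of Lyz2 to C1qb was 1.88, 1.22 and 1.37 in knockdown livers 1 to 3 and 0.717, 0.963 and 3.63 in scramble livers 1 to 3.

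Among the resident genes, 0 of 8 passed the edgeR test. At an unadjusted p under 0.05, 1 (Cd5l) was higher, beside 11.5% of all genes tested. DESeq2 called Cd5l and limma-voom called 0. Their median log2 fold change was 0.35. Clec4f encodes a galactose-binding lectin that in mice marks Kupffer cells. Its level was 49.8, 31.4 and 31.7 CPM in knockdown livers 1 to 3 and 17.1, 20.5 and 33.2 CPM in scramble livers 1 to 3. The groups overlapped through scramble liver 3 (log2 fold change 0.67, SE 0.30, edgeR adjusted p = 0.227). Cd5l encodes a scavenger protein that macrophages secrete, and it ran through the livers in much the same way. It stood at 49.2, 30.7 and 31.1 CPM in the knockdown, against 11.4, 20.3 and 27.2 CPM in the scramble livers. Here the groups did not overlap, and the means were 37.0 ± 10.6 CPM in the knockdown and 19.6 ± 7.91 CPM in the scramble livers (SD, n = 3 each). The log2 fold change was 0.91 (SE 0.35) with an adjusted p of 0.173 in edgeR and 0.0397 in DESeq2, and the adjusted p ran from 0.0397 to 0.34 over the alternatives.

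Vsig4, the complement receptor that captures opsonised particles from blood, had 28.3, 18.0 and 15.5 CPM in the knockdown, against 11.6, 13.6 and 26.3 CPM in the scramble livers. Its 2 highest livers were thus 1 of each group (log2 fold change 0.27, SE 0.37, edgeR adjusted p = 0.728), while without knockdown liver 1 its log2 fold change was -0.04. Marco, a scavenger receptor for bacteria, was the resident gene with the largest standard error. It had 45.6, 10.5 and 12.2 CPM in the knockdown, against 29.4, 11.1 and 15.2 CPM in the scramble livers, so here scramble liver 1 was high in place of scramble liver 3. Its log2 fold change was 0.30 (SE 0.70), and -0.71 without knockdown liver 1. The FPKM ratio of Marco to Clec4f was 1.11, 0.407 and 0.469 in the knockdown, against 2.09, 0.659 and 0.554 in the scramble livers. The other resident genes were Folr2, a folate receptor (log2 fold change 0.78, SE 0.41), and Timd4, which binds phosphatidylserine on dying cells (0.39, SE 0.37). Cd163, which takes up haemoglobin bound to haptoglobin, had a log2 fold change of -0.35 (SE 0.41). Spic, the transcription factor gene of macrophages that recycle iron, had one of -0.42 (SE 0.55). These 4 did not pass the test, and Cd163 carried fractional counts in 5 libraries, which mark reads shared with other transcripts. The FPKM ratio of Cd163 to Clec4f was 0.162, 0.183 and 0.0906 in the knockdown, against 0.373, 0.246 and 0.298 in the scramble livers, so every knockdown liver was below every scramble liver. That ratio was 1 of 10 computed and was picked out after its values were seen.

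The 15 general macrophage genes had positive log2 fold changes from 0.05 to 1.00, with a median of 0.56, and 0 passed the edgeR test. DESeq2 and limma-voom also called 0. At an unadjusted p under 0.05, 1 gene (Mrc1) was higher, beside 11.5% of all genes tested. Knockdown liver 1 was the highest knockdown liver and scramble liver 3 the highest scramble liver in 15 of 15. C1qb, a chain of the complement recognition protein C1q, shows this order. Its level was 50.2, 25.0 and 26.1 CPM in knockdown livers 1 to 3 and 18.7, 18.6 and 34.1 CPM in scramble livers 1 to 3 (log2 fold change 0.50, SE 0.37, edgeR adjusted p = 0.466). C1qa and C1qc differed by 0.60 (SE 0.37) and 0.49 (SE 0.46).

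Lyz2 showed the widest spread within groups. It had 93.7, 30.3 and 35.6 CPM in the knockdown, against 13.4, 17.9 and 123.2 CPM in the scramble livers. The highest and the lowest liver were both scramble livers (log2 fold change 0.05, SE 1.00, edgeR adjusted p = 0.984), while the log2 fold change was -0.64 without knockdown liver 1, -0.41 without scramble liver 1 and -0.38 without scramble liver 2. Lyz2 carried fractional counts in 5 libraries. Lyz2 is also abundant in monocytes and neutrophils, whose 8 tested list genes stood, on the mean log2 scale relative to scramble, at 0.79, -0.57 and -0.14 in the knockdown, against -0.27, -0.51 and 0.78 in the scramble livers. That list summed to 13.7 to 35.6 CPM in the knockdown, against 15.2 to 34.1 CPM in the scramble livers, and none of its 14 genes found was at 0 in every liver. Aif1, an actin-binding protein of macrophages, was low, with 1.47, 0.857 and 1.35 CPM in the knockdown, against 0.368, 0.498 and 0.968 CPM in the scramble livers. Knockdown liver 2 was below scramble liver 3 (log2 fold change 1.00, SE 0.45, edgeR adjusted p = 0.221).

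Mrc1, the mannose receptor that clears glycoproteins, had the smallest standard error of the general genes. It had 37.4, 37.2 and 35.4 CPM in knockdown livers 1 to 3 and 28.2, 27.3 and 34.3 CPM in scramble livers 1 to 3. The groups did not overlap, with means of 36.7 ± 1.13 CPM in the knockdown and 30.0 ± 3.80 CPM in the scramble livers (SD, n = 3 each). The log2 fold change of 0.29 (SE 0.11) had an edgeR adjusted p of 0.161. In liver, Mrc1 is also made by sinusoidal endothelial cells. The remaining general genes were the receptor genes Csf1r (0.41, SE 0.42), Msr1 (0.58, SE 0.27), Cd14 (0.56, SE 0.64), Tlr4 (0.15, SE 0.47) and Adgre1 (0.58, SE 0.50), which encodes F4/80. With them came the lysosomal genes Ctss (0.60, SE 0.59) and Cd68 (0.59, SE 0.51), the pore-forming Mpeg1 (0.76, SE 0.43) and the chemokine Ccl6 (0.12, SE 0.60), all as log2 fold changes. Without knockdown liver 1 those of Cd14, Tlr4 and Ccl6 were -0.32, -0.14 and -0.38.

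The 6 genes of leukocyte signalling had a median log2 fold change of 0.80. Of them 1, Fcgr2b, rose, beside 3.02% of all genes called higher. Fcgr2b encodes the IgG receptor that inhibits the cell bearing it and, in liver, clears small immune complexes. Its level was 33.9, 42.5 and 44.7 CPM in knockdown livers 1 to 3 and 18.0, 23.6 and 27.4 CPM in scramble livers 1 to 3. Every knockdown liver was above every scramble liver, and knockdown liver 1, the highest in most macrophage genes, was the lowest of its group. The means were 40.4 ± 5.72 CPM in the knockdown and 23 ± 4.73 CPM in the scramble livers (SD, n = 3 each), 1.76-fold higher in the knockdown (log2 fold change 0.81, SE 0.17, edgeR adjusted p = 0.0315). The call was lost without knockdown liver 2 (adjusted p = 0.116) or 3 (0.107) and without scramble liver 1 (0.0595) or 2 (0.0975), and over all alternatives the adjusted p ran from 0.00178 to 0.116. Its counts were fractional in 6 libraries, as were those of its neighbour Fcgr3, an activating IgG receptor of similar sequence, so reads split between such genes are uncertain.

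Fcgr2b and Fcgr3 did not run together. Fcgr3 had 11.2, 5.02 and 5.85 CPM in the knockdown, against 3.61, 3.11 and 11.1 CPM in the scramble livers (log2 fold change 0.31, SE 0.57, edgeR adjusted p = 0.795), while the log2 fold change was -0.13 without knockdown liver 1. The FPKM ratio of Fcgr2b to Fcgr3 was 2.87, 7.99 and 7.25 in the knockdown, against 4.70, 7.21 and 2.35 in the scramble livers, lowest in the 2 livers with the highest macrophage sums. Fcgr2b is not a gene of macrophages alone, as sinusoidal endothelial cells make it. Of 17 endothelial genes tested, 5 rose (Tie1, Kdr, Cdh5, Tek and Egfl7) and 0 fell, beside 3.02% of all genes called higher and 4.64% lower. The median log2 fold change of the 17 was 0.36. Their summed level was 573.8, 587.4 and 535.7 CPM in the knockdown, against 426.1, 471.9 and 469.2 CPM in the scramble livers, and none of the 17 was at 0 in every liver. Each of the endothelial calls was lost when some single liver was left out, Tie1, Kdr and Cdh5 among them without knockdown liver 2 (0.104, 0.106 and 0.112). The part of endothelial cells in the Fcgr2b and Mrc1 levels was not tested.

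Ptprc, which encodes the leukocyte phosphatase CD45, had 6.37, 3.00 and 3.40 CPM in the knockdown, against 0.613, 2.12 and 2.78 CPM in the scramble livers. The groups did not overlap, but scramble liver 1 was far below the rest (log2 fold change 1.21, SE 0.53, edgeR adjusted p = 0.211). Tyrobp, the DAP12 adaptor that passes on signals of activating receptors, again had knockdown liver 1 and scramble liver 3 on top. It had 12.9, 6.86 and 6.91 CPM in the knockdown, against 2.27, 3.17 and 10 CPM in the scramble livers (log2 fold change 0.79, SE 0.59, edgeR adjusted p = 0.482). Fcer1g, the shared signalling chain of Fc receptors, and Laptm5, a lysosomal membrane protein of blood cells, had log2 fold changes of 0.45 (SE 0.33) and 0.82 (SE 0.40).

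The 3 infiltrating genes were scarce. Ccr2, the receptor that draws monocytes out of the marrow, had 4.20, 1.04 and 2.58 CPM in knockdown livers 1 to 3 and 0.0613, 1.56 and 2.06 CPM in scramble livers 1 to 3. The low value of scramble liver 1 was 1 count, and knockdown liver 2 was below scramble livers 2 and 3 (log2 fold change 1.09, SE 0.89, edgeR adjusted p = 0.516). Cx3cr1, the fractalkine receptor, had 6.93, 2.08 and 2.52 CPM in the knockdown, against 1.90, 2.18 and 3.45 CPM in the scramble livers. Only knockdown liver 1 lay above all scramble livers (log2 fold change 0.62, SE 0.50, edgeR adjusted p = 0.498), while without it the log2 fold change was -0.13. Itgax, which encodes the integrin CD11c of dendritic cells and some macrophages, had 22, 6 and 11 counts in the knockdown, against 0, 5 and 4 counts in the scramble livers. Every knockdown liver was above every scramble liver, as in 15.1% of all genes tested, but by as little as 0.367 against 0.311 CPM. Itgax was not tested in the main fit, and the alternatives that kept it gave adjusted p-values of 0.201 to 0.309. In scramble liver 1 a count of 0 allows up to 3 counts, or 0.184 CPM, for counting error alone. Neither tested gene was called by edgeR, DESeq2 or limma-voom, 0 had an unadjusted p under 0.05, and Ccr2 and Cx3cr1 carried fractional counts in 5 and 6 libraries.

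The 4 class II genes differed from most other members in which livers were highest. Knockdown liver 3 was the highest of the 6 livers in 4 of 4, and scramble liver 3 was the highest scramble liver in 0. Scramble liver 1 was the lowest in 4 of 4, as it was in 3 of 3 infiltrating, 5 of 6 signalling and 10 of 15 general genes. Their median log2 fold change was 1.31. H2-Eb1 rose by edgeR, beside 3.02% of all genes called higher. At an unadjusted p under 0.05, 4 of 4 were higher, beside 11.5% of all genes tested. DESeq2 called 3 of the 4 higher, beside 616 of 12230 genes. Class II genes are known to be switched on through paired promoter boxes, the X box and the Y box, bound by RFX and NF-Y with the coactivator CIITA. The RefSeq windows of 250 bases before to 50 after the start are shown for the 2 class II genes whose window held the letters of either box. The search gave no match for H2-Ab1 or Cd74, and a gene without a window could give none. The part of these boxes in the order of the livers was not tested. Capitals mark the Y box letters CTGATTGG and, in H2-Eb1, the X box core CTAGCAAC, searched as exact letters on both strands. Near matches stay in lower case, such as ctggcaac in H2-Aa, so an unmarked window can still hold a box.
H2-Aa, GRCm38.p6 chr17:34287774-34288073, minus strand: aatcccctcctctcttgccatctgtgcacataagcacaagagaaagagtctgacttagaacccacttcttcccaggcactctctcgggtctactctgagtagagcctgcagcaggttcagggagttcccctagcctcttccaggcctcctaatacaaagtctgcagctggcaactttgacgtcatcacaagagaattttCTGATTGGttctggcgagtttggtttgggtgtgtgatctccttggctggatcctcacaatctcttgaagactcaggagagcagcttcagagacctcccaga
H2-Eb1, GRCm38.p6 chr17:34305617-34305916, plus strand: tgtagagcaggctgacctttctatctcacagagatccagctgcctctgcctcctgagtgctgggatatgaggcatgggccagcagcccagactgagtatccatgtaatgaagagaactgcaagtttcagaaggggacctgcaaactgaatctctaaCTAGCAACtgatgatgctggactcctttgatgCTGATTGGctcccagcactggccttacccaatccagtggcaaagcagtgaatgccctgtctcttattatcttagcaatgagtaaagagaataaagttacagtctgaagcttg

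The Y box letters began 51 bases before the start in H2-Aa and 62 bases before it in H2-Eb1, and the X box core 94 bases before the start of H2-Eb1. Of 32851 RefSeq windows of this length, 4.10% held the Y box letters and 1.32% the X box core. Windows were present for 27 of the 36 genes, and no other of these held the exact letters of either motif. The letters AGGAAGT, a core of the sites of the macrophage factor PU.1, were in the windows of 9 of those 27 genes (C1qb, C1qc, Ccl6, Ctss, Folr2, Lyz2, Mrc1, Ptprc and Spic), or 33.3%, against 9.35% of all windows. The 33.3% counts genes with a match in any of their windows, while the 9.35% counts single windows, so the 2 are unlike measures. A match describes letters in a window and not a bound site.

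H2-Eb1 had 3.34, 3.31 and 4.45 CPM in knockdown livers 1 to 3 and 0.919, 2.05 and 1.33 CPM in scramble livers 1 to 3. These rested on 66, 54 and 76 counts in the knockdown, against 15, 33 and 22 counts in the scramble livers. Every knockdown liver was above every scramble liver. The means were 3.70 ± 0.651 CPM in the knockdown and 1.43 ± 0.574 CPM in the scramble livers (SD, n = 3 each), a log2 fold change of 1.36 (SE 0.33; adjusted p in edgeR = 0.0452), or 2.57-fold higher in the knockdown. The adjusted p ran from 0.00643 to 0.143 over the alternatives. The call was lost without knockdown liver 1 (0.0709), 2 (0.117) or 3 (0.143) and without scramble liver 1 (0.0916) or 3 (0.128).

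H2-Aa, the alpha chain of the class II molecule I-A, had 4.45, 4.90 and 7.49 CPM in the knockdown, against 0.858, 2.68 and 2.54 CPM in the scramble livers. The groups did not overlap, yet the log2 fold change of 1.47 (SE 0.41) had an edgeR adjusted p of 0.0743. It was under 0.05 in DESeq2 (0.00942) and on FPKM with a pseudocount of 1 (0.0478), and it ran from 0.00942 to 0.208 over the alternatives. Its partner beta chain H2-Ab1 had 4.10, 6.68 and 7.79 CPM in the knockdown, against 0.980, 4.29 and 2.42 CPM in the scramble livers. Scramble liver 2 was above knockdown liver 1 (log2 fold change 1.27, SE 0.49, edgeR adjusted p = 0.174). The FPKM ratio of H2-Aa to H2-Ab1 was 0.688 to 1.2 over the 6 livers.

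Cd74, the invariant chain that guides class II molecules to the endosome, had 15.4, 21.4 and 25.1 CPM in the knockdown, against 6.07, 14.4 and 9.62 CPM in the scramble livers. The groups did not overlap, with knockdown liver 1 just above scramble liver 2 (log2 fold change 1.04, SE 0.33, edgeR adjusted p = 0.115). DESeq2 called Cd74 (0.0157). Scramble liver 1 held between 14 and 99 counts of each of the 4 class II genes, the fewest of the 6 livers.

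**Figure D3:**
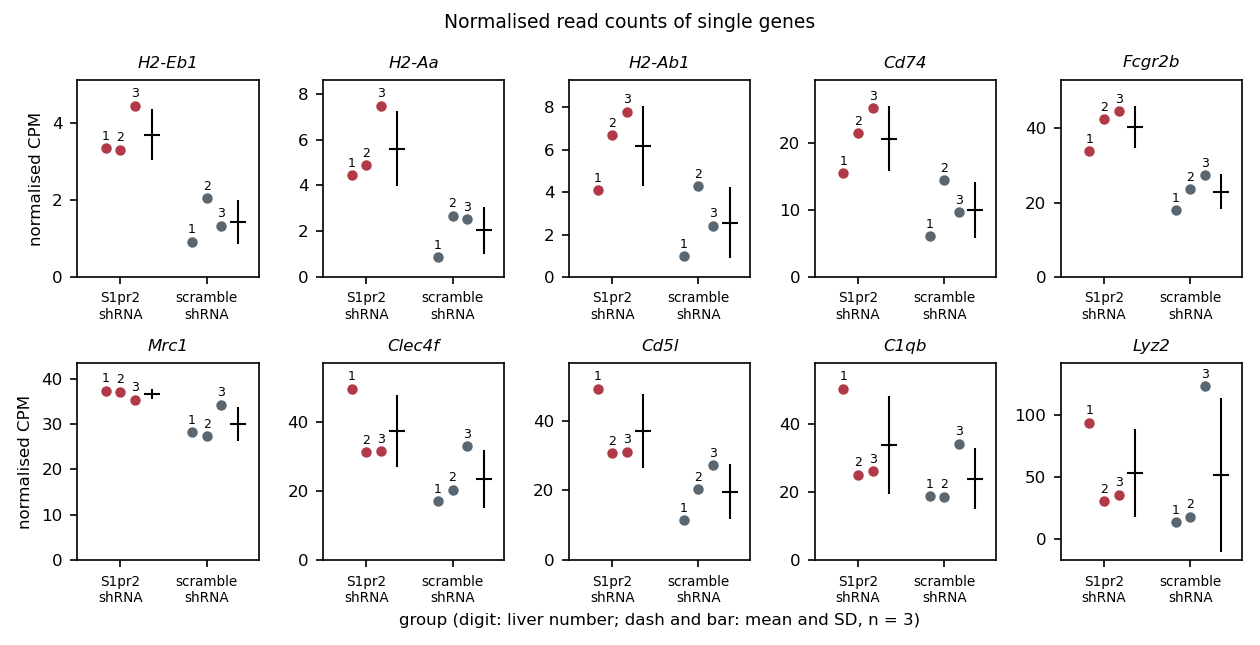
Normalised read counts (CPM, linear axes, each panel with its own range) of 10 macrophage genes in 3 S1pr2 shRNA livers (red, left) and 3 scramble livers (grey, right), with each point's liver number and the group mean and SD beside it. In the class II genes and Fcgr2b knockdown liver 1 lies at or near the bottom of its group, at 3.34 CPM for H2-Eb1 and 33.9 CPM for Fcgr2b, while in Clec4f, Cd5l, C1qb and Lyz2 it lies at the top of its group.

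Set against each other liver by liver, the roles fell into 2 patterns. The mean log2 CPM of the 8 resident genes, relative to the scramble mean, was 0.89, 0.13 and -0.07 in knockdown livers 1 to 3 and -0.28, -0.27 and 0.54 in scramble livers 1 to 3. The general genes ran the same way, at 1.17, 0.17 and 0.25 in the knockdown, against -0.51, -0.30 and 0.81 in the scramble livers. The 4 class II genes stood at 1.01, 1.33 and 1.69 in the knockdown, against -0.80, 0.65 and 0.15 in the scramble livers; they were the role with the largest group difference of the 5. The groups did not overlap for class II, and they overlapped for the resident and general genes.

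The 6 signalling genes lay at 1.25, 0.56 and 0.68 in the knockdown, against -0.68, -0.12 and 0.80 in the scramble livers. The 2 tested infiltrating genes lay at 1.89, 0.10 and 0.84 in the knockdown, against -1.31, 0.40 and 0.91 in the scramble livers. Both of these roles overlapped between groups. The knockdown minus scramble difference of the means was 0.32 for resident, 0.53 for general, 0.83 for signalling, 0.95 for infiltrating and 1.34 for class II genes. Without knockdown liver 1 these were 0.03, 0.21, 0.62, 0.47 and 1.51, and without scramble liver 1 they were 0.18, 0.28, 0.49, 0.29 and 0.94. Without scramble liver 3 they were 0.59, 0.94, 1.23, 1.40 and 1.42. No test was run on these means, because the genes share their livers.

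**Figure D4:**
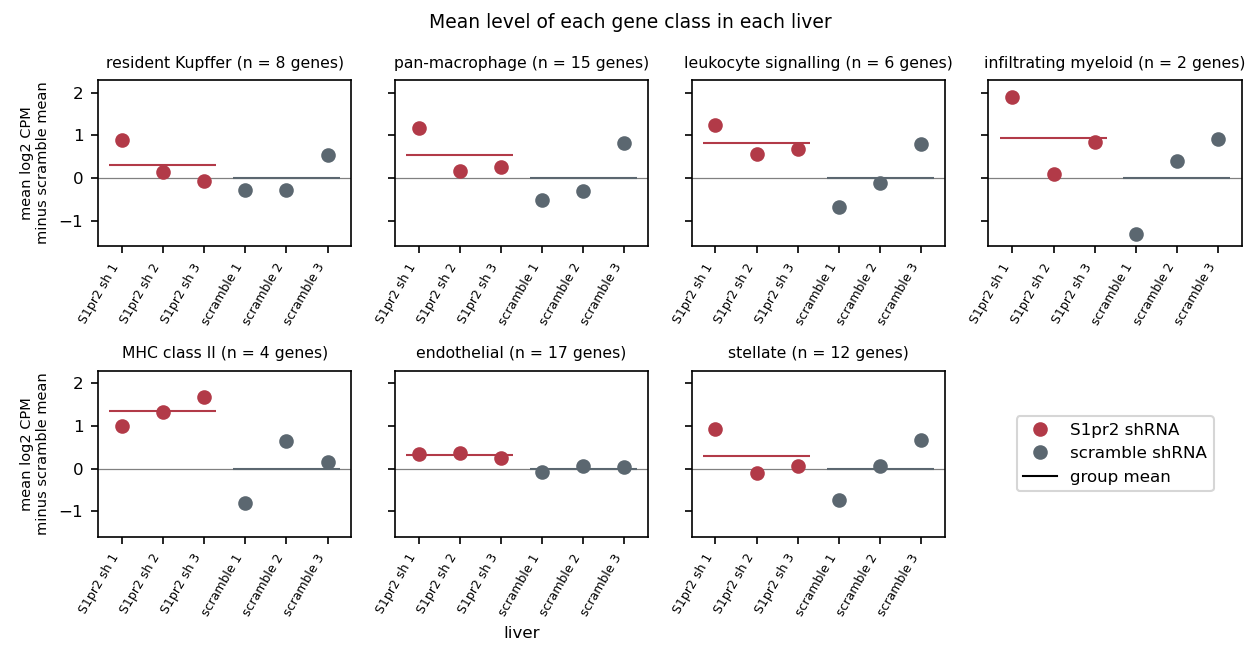
Mean log2 CPM of each gene role in each liver, relative to the scramble mean (points; lines are group means of 3 livers; S1pr2 shRNA red and left), with the endothelial and stellate marker lists for comparison. Knockdown liver 1 and scramble liver 3 are the high points of the resident, general, signalling, infiltrating and stellate panels, while the 3 knockdown livers lie above all scramble livers for class II (1.01 to 1.69) and endothelial genes (0.24 to 0.36).

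Infiltrating relative to resident genes gave no even shift between the groups. The difference of their mean log2 levels within a liver was 1.00, -0.03 and 0.91 in knockdown livers 1 to 3 and -1.03, 0.67 and 0.36 in scramble livers 1 to 3, so knockdown liver 2 lay below scramble livers 2 and 3. As summed expected counts, the infiltrating genes were 6.16, 3.13 and 5.59% of the resident sum in the knockdown, against 2.25, 5.09 and 4.38% in the scramble livers. The group difference of 0.63 log2 units was smaller than the SD of 0.90 among scramble livers, and it ran from 0.11 to 0.96 with 1 liver left out, lowest without scramble liver 1.

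Class II relative to resident genes was 0.12, 1.2 and 1.76 log2 units in the knockdown, against -0.52, 0.92 and -0.40 in the scramble livers. The class II sum was 13.7, 32.7 and 43.7% of the resident sum in the knockdown, against 10.3, 29.5 and 12.2% in the scramble livers. Knockdown liver 1 thus lay close to scramble livers 1 and 3, and scramble liver 2 close to knockdown liver 2. The group difference was 1.02 log2 units, with SDs of 0.84 among knockdown and 0.80 among scramble livers, and it ran from 0.66 without knockdown liver 3 to 1.48 without knockdown liver 1 or scramble liver 2.

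**Figure D5:**
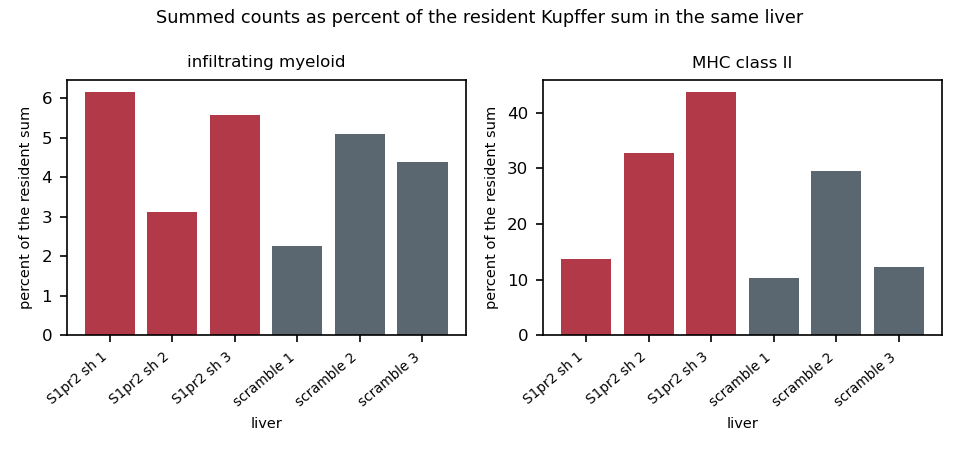
Summed expected counts of the 3 infiltrating genes and of the 4 MHC class II genes as percent of the summed counts of the 8 resident Kupffer genes in the same liver (bars from 0, 1 liver each, S1pr2 shRNA red and left). The infiltrating share runs from 2.25 to 6.16% with both groups mixed, and the class II share is highest in knockdown liver 3 at 43.7% and lowest in scramble liver 1 at 10.3%.

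Other genes of the same cells were read from lists of further Kupffer, macrophage and liver cell genes. Over 147 tested genes of all these lists, 9 were called higher and 1 lower, beside 3.02% of all genes called higher and 4.64% lower. At an unadjusted p under 0.05, 11.5% of all genes were higher (1411 of 12230), and 1581 of 12230 were lower. DESeq2 called 616 of 12230 genes higher and 845 lower. The counts of each list below stand beside these shares. Of 15 further Kupffer identity genes, 1 rose and 0 fell, with a median log2 fold change of 0.63. The one was Id1, a transcriptional inhibitor, with 7.39, 9.31 and 10.8 CPM in the knockdown, against 1.47, 4.29 and 3.15 CPM in the scramble livers (log2 fold change 1.62, SE 0.35, edgeR adjusted p = 0.0353). The Id1 call was lost without knockdown liver 1 (adjusted p = 0.053), 2 (0.116) or 3 (0.108) and without scramble liver 3 (0.105). Id1 is made by hepatocytes and endothelial cells too. Like the class II genes, it was highest in knockdown liver 3 and lowest in scramble liver 1. Id3, its relative that marks Kupffer cells, had 30.9, 42.1 and 58.8 CPM in the knockdown, against 5.82, 37.1 and 22.2 CPM in the scramble livers and did not pass the test (log2 fold change 1.01, SE 0.64, adjusted p of 0.404 in edgeR).

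Of 15 genes of the class II machinery, 8 were tested, 0 fell and 1 rose, beside 3.02% of all genes called higher. This was Ifi30, the lysosomal thiol reductase that unfolds antigens, with 22.1, 22.4 and 18.3 CPM in the knockdown, against 12.8, 12.8 and 14.9 CPM in the scramble livers (log2 fold change 0.63, SE 0.12, edgeR adjusted p = 0.0241). That call was lost without knockdown liver 1 (0.0557) or 2 (0.102) and without scramble liver 1 (0.0669) or 2 (0.0862). The peptide loading genes H2-DMa and H2-DMb1 had log2 fold changes of 0.92 (SE 0.41) and 1.02 (SE 0.54) and did not pass. Ciita, the coactivator gene, was below the count filter, at 0.708, 0.184 and 0.176 CPM in the knockdown, against 0.0613, 0.311 and 0.303 CPM in the scramble livers.

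Spi1, which encodes the macrophage transcription factor PU.1, had a log2 fold change of 0.40 (SE 0.41) and did not pass the test. Of 23 leukocyte kinase and cytoskeleton genes, 1 rose and 0 fell: Lcp2, the adaptor SLP-76, had 4.25, 3.18 and 2.99 CPM in the knockdown, against 1.47, 1.56 and 1.94 CPM in the scramble livers (log2 fold change 1.07, SE 0.26, edgeR adjusted p = 0.0452). The Lcp2 call was lost with any 1 liver left out (0.0784 to 0.125). The median of that list was 0.49, and its 1 call stands beside 3.02% of all genes called higher. By edgeR 0 of 14 phagocytic receptor, 0 of 6 oxidase and 0 of 6 colony-stimulating factor genes passed, with medians of 0.58, 0.63 and 0.37. At an unadjusted p under 0.05 these lists had 3, 1 and 1 genes higher and 0 lower, and DESeq2 and limma-voom called 0 in each.

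Of 9 tested cytokine and chemokine genes, 0 passed the edgeR test. At an unadjusted p under 0.05, 4 were higher, beside 11.5% of all genes tested. DESeq2 called 3 of the 9 and limma-voom 0. Cxcl9, the chemokine induced by interferon-gamma, had 12.1, 2.57 and 2.40 CPM in the knockdown, against 1.35, 1.62 and 0.968 CPM in the scramble livers. Cxcl10, its relative, had 7.49, 1.04 and 0.703 CPM in the knockdown, against 0.123, 0.373 and 0 CPM in the scramble livers. In both genes every knockdown liver was above every scramble liver, and knockdown liver 1 was far above the other 2 (edgeR adjusted p = 0.140 for Cxcl9 and 0.120 for Cxcl10). Cxcl1, a neutrophil attractant, had 1.82, 1.22 and 2.52 CPM in the knockdown, against 0.796, 0.809 and 0.424 CPM in the scramble livers (log2 fold change 1.45, SE 0.41, edgeR adjusted p = 0.0717).

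Markers of other cells moved with the livers too. The 12 stellate cell genes, on the mean log2 scale, stood at 0.94, -0.11 and 0.05 in the knockdown, against -0.73, 0.07 and 0.66 in the scramble livers, with knockdown liver 1 and scramble liver 3 again the highest of their groups. They summed to 496.7 to 716.9 CPM in the knockdown, against 316.2 to 640.1 CPM in the scramble livers, with none at 0 in every liver. Col1a1, a collagen chain, had 71.9, 4.29 and 5.44 CPM in the knockdown, against 5.02, 10.8 and 41.9 CPM in the scramble livers, so its highest 2 livers were knockdown liver 1 and scramble liver 3. By edgeR 0 of 12 stellate genes, 0 of 8 monocyte and neutrophil genes, 0 of 3 dendritic cell genes, 0 of 5 red cell genes and 0 of 10 hepatocyte genes passed, nor did limma-voom call any of them. Unadjusted p-values under 0.05 numbered 2 for stellate, 0 for monocyte and neutrophil, 0 for dendritic and 1 for red cell genes, all higher, and 1 higher with 3 lower for hepatocyte genes. DESeq2 called 1 stellate and 1 red cell gene higher, and 1 hepatocyte gene higher with 3 lower. The summed hepatocyte level was lowest in knockdown liver 1, at 95327 CPM, and highest in scramble liver 3, at 167913 CPM. Alb made up most of both sums, at 56835 and 129028 CPM, so the sum mainly follows that gene. On the mean log2 scale the 10 hepatocyte genes stood at -0.33, -0.04 and -0.11 in the knockdown, against -0.01, -0.02 and 0.03 in the scramble livers. What part the cell makeup of each piece of liver had in the macrophage levels was not tested.

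Most lymphocyte genes were below the count filter, which 2 of 11 T cell, 0 of 9 natural killer cell and 2 of 7 B cell genes passed. Cd3e, which encodes a chain of the T cell receptor complex, had at most 0.367 CPM in any liver. Cd4, the coreceptor of helper T cells, rose, with 3.95, 9.98 and 5.62 CPM in the knockdown, against 0.368, 1.74 and 0.424 CPM in the scramble livers (log2 fold change 2.94, SE 0.63, edgeR adjusted p = 0.0402). Cd28, a T cell costimulatory receptor, fell, with 0.101, 0.490 and 0.527 CPM in the knockdown, against 4.84, 2.36 and 2.72 CPM in the scramble livers (log2 fold change -3.16, SE 0.54, edgeR adjusted p = 0.0160). The 2 B cell genes had unadjusted p-values above 0.05, and no tool called them. Cd4 is also made by some dendritic cells, and the strand handling of the counting is not given, so reads of overlapping transcripts cannot be told apart. The Cd4 call was lost without any 1 of knockdown livers 1 to 3 or scramble livers 1 and 3 (adjusted p of 0.0509 to 0.115), and the Cd28 call without knockdown liver 2 (0.064).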

How the data were processed

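RNA of 6 mouse livers, 3 per hairpin group, had been sequenced on a DNB platform, per the labels. The submitters' processing notes name the mm9 build and the tools RSEM 1.2.12, Bowtie2, HISAT2 and DESeq2; the sources used here do not give their roles, the read filters or the strand handling. The deposited tables give for each gene an expected count, the RSEM estimate of its fragments not scaled to depth, and the FPKM that the authors scaled to transcript length and depth. A gene not listed in a library was taken as 0 counts there. Genes without a symbol (19 to 23 per library, 0.204 to 0.255% of the counts) were kept under their gene ID. Between 24.5 and 25.2% of listed genes had an expected count more than 0.005 from a whole number, as when reads are shared between genes.

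Expected counts were rounded and filtered with filterByExpr (minimum count 10) of edgeR 4.0.16 in R 4.3.3, which left 12230 genes. They were scaled by TMM (factors 1.154, 0.987 and 1.027 for the knockdown, 0.968, 0.924 and 0.957 for the scramble livers) and tested two-sided by edgeR's quasi-likelihood F test with no factor but group. Adjusted p-values are Benjamini-Hochberg over all genes tested, and a gene was called under 0.05. CPM are TMM-scaled, and mean log2 levels used a prior count of 2. The script was tested on simulated counts. The limit given for a count of 0 covers counting error only. The SEs come from the edgeR fit and include the spread among livers.

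The member genes were picked out of the files by symbol, but the list of symbols, the roles and the compared lists (207 symbols, 202 found) were drawn up with earlier results of these data known. Values per liver are given for members called, for the 2 of each role with the highest mean FPKM and the 2 with the smallest p, for all members of a role with 4 or fewer, and for at most 3 genes of a compared list. Marco, Fcgr3 and a few others of the lists were added after their values were seen, and 1 result of a compared list is not reported here. Alternatives were DESeq2 size factors, upper-quartile factors, no filter, a mean of at least 1 CPM, DESeq2 1.42.0, limma-voom (limma 3.58.1), limma on log2(FPKM + 0.1) or log2(FPKM + 1) over genes averaging at least 0.1 FPKM, the replicate number as a block, members without fractional counts, and each liver left out. Promoter windows are from RefSeq on GRCm38.p6, while the counts were made on mm9.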

Additional observations from a re-analysis of the deposited data

How the results depend on the processing

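The median log2 fold change of the macrophage genes stayed positive under every alternative run, from 0.25 without knockdown liver 1 to 1.07 without scramble liver 3. The number called higher was 2 by edgeR, 5 by DESeq2, 1 of 28 without members carrying fractional counts, and 0 to 1 with each liver left out; 0 were called lower throughout. Calls over all genes were 937, 1461 by DESeq2, and 231 to 643 with each liver left out. Of the compared lists, 9 genes were called higher, 18 by DESeq2, 16 on FPKM with a pseudocount of 0.1 and 0 to 3 with each liver left out. The 1 called lower became 5 by DESeq2, 0 with the replicate block and 0 to 1 with each liver left out. The log2 fold change of S1pr2 missed the threshold at -0.90 and -0.54 on FPKM with pseudocounts of 0.1 and 1 and at -1.11 with the replicate block, and ran from -1.29 to -0.95 with each liver left out. Without knockdown liver 1 the sign turned in 8 macrophage genes: Marco (-0.71), Lyz2 (-0.64), Ccl6 (-0.38), Cd14 (-0.32), Tlr4 (-0.14), Fcgr3 (-0.13), Cx3cr1 (-0.13) and Vsig4 (-0.04). It also turned without scramble livers 1 and 2 for Lyz2 (-0.41 and -0.38), Ccl6 (-0.15 and -0.20) and Tlr4 (-0.10 and -0.07), and without scramble liver 2 for Fcgr3 (-0.01). The highest values of these genes with a liver left out were 0.80 for Marco, 1.77 for Lyz2, 0.94 for Ccl6, 1.22 for Cd14, 0.76 for Tlr4, 1.13 for Fcgr3, 0.92 for Cx3cr1 and 0.71 for Vsig4. Leaving out a liver lowers the number of samples; the cause of the other changes was not tested.

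Replicate numbers are shared by the groups, but deviations of same-numbered livers correlated at only -0.06, 0.22 and -0.12, so the numbers were not taken as pairs. With the replicate number as a block, 3 macrophage genes were called higher (Fcgr2b, Cd74 with an adjusted p of 0.0343 and H2-Aa with 0.0469) and H2-Eb1 was not (0.0678), while calls over all genes were 808. Over the 35 tested macrophage genes and 15 alternatives, 492 values kept direction and side of the threshold, 10 lost the call, 6 gained one and 15 changed sign. With 3 livers a group, genes near 1 CPM rest on about 20 counts or fewer, and shared reads limit Fcgr2b, Fcgr3, Cx3cr1, Ccr2, Lyz2 and Cd163.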
